A study of Mus musculus with 8 samples.

Results

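Spermatogonial stem and progenitor genes were followed in testis of mice that lack CTCFL. The 10 genes listed were Zbtb16, Gfra1, Kit, Dmrt1, Sohlh1, Sohlh2, Sall4, Nanos2, Uchl1 and Id4, and a probe set was taken when its symbol in the array table was one of these names. Of the 10 genes 9 had a probe set, 15 probe sets in all, out of 45101 on the array. Nanos2, an RNA-binding protein that keeps stem cells undifferentiated, had none under its name and has no level here.

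RNA of each testis sample was measured on an Affymetrix Mouse430_2 array of its own. The labels name 5 samples wildtype, numbered 1, 2, 4, 6 and 7, and the other 3 Ctcfl mutant, numbered 3, 5 and 8. All animals were taken on postnatal day 23. CTCFL is a paralog of the zinc finger protein CTCF that is found in late spermatogonia and preleptotene spermatocytes. The mutant mice were homozygous for a germline deletion of Ctcfl exons 1 to 8 that carries a GFP coding sequence and was made by targeting embryonic stem cells, and the line was kept on a C57/Bl6 background. The labels call the controls wildtype, whereas the study's text describes heterozygous littermates with 1 deleted allele, and the name of the labels is used below. No source used here states more about the animals behind the samples, so that p-values measure only the spread between these samples, which may be technical in part. Ctcfl was not analysed here, and the genotype labels have no check from the targeted gene.

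A small pool of undifferentiated spermatogonia on the basal lamina of the seminiferous tubule maintains spermatogenesis. These cells respond to GDNF, secreted by Sertoli cells, through the receptors GFRA1 and RET, and they depend on transcriptional regulators such as ZBTB16 (also known as PLZF), SALL4 and ID4. Retinoic acid then turns them into differentiating spermatogonia, which carry the receptor tyrosine kinase KIT and need SOHLH1 and SOHLH2, and DMRT1 holds back their entry into meiosis.

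SOHLH1 and SOHLH2 are basic helix-loop-helix proteins, a class that binds the E-box, and ID4 is a helix-loop-helix protein without a DNA-binding part. The 250 bases before the start of a gene were therefore searched for the E-box letters CANNTG, which read alike on both strands in this pattern. The 3 sequences below belong to Sohlh1 itself and to the 2 members with the smallest p-values of the genotype comparison, Gfra1 and Uchl1. They are from the RefSeq table of GRCm38.p6, are written 5′ to 3′ along the strand of the gene and have every E-box in capitals. The Sohlh1 stretch is chr2:25847249-25847498 on the minus strand, that of Gfra1 is chr19:58455399-58455648 on the minus strand and that of Uchl1 is chr5:66675871-66676120 on the plus strand.
Sohlh1: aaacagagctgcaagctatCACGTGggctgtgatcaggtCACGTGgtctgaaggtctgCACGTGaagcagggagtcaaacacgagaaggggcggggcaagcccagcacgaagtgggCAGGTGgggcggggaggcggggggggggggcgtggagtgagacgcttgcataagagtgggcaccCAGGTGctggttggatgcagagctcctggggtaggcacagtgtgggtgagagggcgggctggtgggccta
Gfra1: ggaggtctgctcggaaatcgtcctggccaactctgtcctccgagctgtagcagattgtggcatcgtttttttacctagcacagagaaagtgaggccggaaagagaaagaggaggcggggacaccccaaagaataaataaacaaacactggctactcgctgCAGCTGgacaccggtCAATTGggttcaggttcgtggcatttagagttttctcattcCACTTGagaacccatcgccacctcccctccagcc
Uchl1: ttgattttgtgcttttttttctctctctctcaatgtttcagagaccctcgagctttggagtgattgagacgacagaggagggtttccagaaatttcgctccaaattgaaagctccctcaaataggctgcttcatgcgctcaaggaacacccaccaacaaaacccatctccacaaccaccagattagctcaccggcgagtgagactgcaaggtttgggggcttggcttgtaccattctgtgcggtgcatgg

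The Sohlh1 stretch held 5 E-boxes. Of these, 3 were the palindrome CACGTG, with their first base 231, 211 and 192 bases before the start, and the other two were CAGGTG, 134 and 70 bases before it. Gfra1 had 3 E-boxes with different centres. The first, CAGCTG, lay 90 bases before the start, the next, CAATTG, was at 75 bases and the last, CACTTG, at 34 bases. Uchl1 had no E-box. Windows of 300 bases, which add the 50 bases after the start, were available for 7 of the 10 genes, namely Sohlh1, Gfra1, Uchl1, Kit, Sohlh2, Nanos2 and Id4. Kit had 1 E-box, CACTTG, which lay 9 bases after the first of its 2 listed starts, Sohlh2 had 1, CAGATG, 241 bases before it, and Nanos2 and Id4 had none. E-box letters are common, since 72.3% of the 32851 windows in the table had at least 1 and 17.6% had 3 or more. The palindrome CACGTG, itself an E-box, was present in 7.15% of the windows, and 29 windows (0.0883%) had it 3 or more times.

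The same windows were searched on both strands for the letters ACATTGT, taken from the middle of the DMRT1 motif, and for 3 versions of the core of the CTCF motif (AGGGGGC, then the version AGGTGGC, and also the version AGATGGC). None of the 7 genes with a window had the DMRT1 letters, which occurred in 2.96% of all windows. A CTCF core was found 18 bases before the start of Gfra1, 24 bases before that of Sohlh2, and 217 and 134 bases before that of Id4, and 21.4% of all windows had at least 1. These matches describe letters only, as no binding was measured in these arrays.

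Wildtype 7 and mutant 8 were unlike the remaining arrays before genotype was considered. Their scores on the first principal component, which carried 44.9% of the variance, were 40.2 and 38.2, against -24.8 to -3.10 for the other 6. Spermatid markers, from the haploid germ cells, were higher on both, as the mean level of 9 spermatid markers was 11.4 on wildtype 7 and 10.9 on mutant 8, against 8.72 to 9.39 on the other wildtype and 8.59 to 8.89 on the other mutant arrays. Results are therefore given with all 8 arrays and with these 2 arrays left out, and also with the pair as a block, which is a term in the fit that compares genotypes within the pair and within the other 6 arrays. The pair was set from the expression values, and no label names it. Levels are log2 values for whole probe sets, and a level of one probe set cannot be set against that of another. In RNA of whole testis, fewer cells of a type and less RNA per cell cannot be told apart.

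Of the 15 probe sets, 11 were higher and 4 lower in Ctcfl mutant testis, with a median difference of 0.086 on the log2 scale, against 0.0032 over all probe sets. The differences ranged from -0.33 to 0.35. The median fell to 0.016 when mutant 5 was left out and to 0.035 when wildtype 7 was left out. With limma, 0 of the 15 passed an adjusted p of 0.05, as did 0 of 45101 on the whole array (0%). At an unadjusted p of 0.05 there were 2 members, Gfra1 and Uchl1, both higher in mutant testis, where 1.76% of all probe sets were higher and 1.7% lower past that threshold. No member passed in the lower direction. Gfra1 and Uchl1 stayed past the unadjusted threshold when any 1 array was left out. The groups of arrays overlapped for every member, whereas 1.38% of all probe sets had every mutant array above every wildtype array and 1.31% had every one below. One-way comparison without shared variance also gave 0 adjusted calls on the whole array, with 1708 probe sets past the unadjusted threshold against 1564 in limma, and the same 2 members among them.

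**Figure D1:**
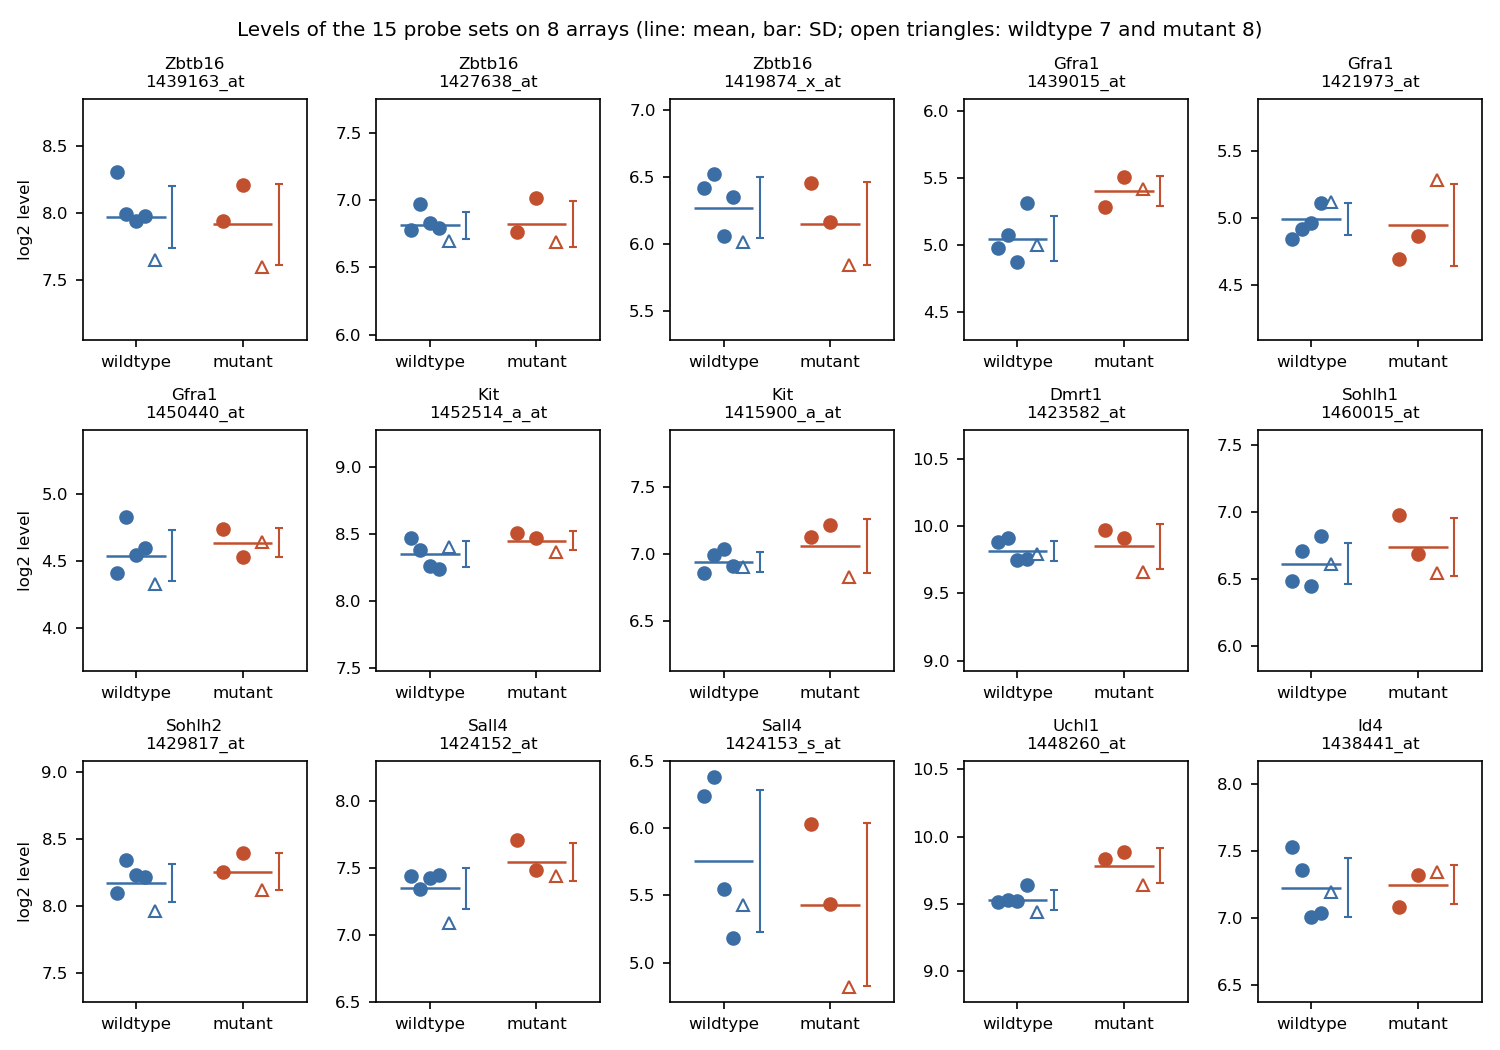
Log2 levels of the 15 probe sets of 9 stem and progenitor genes (y axis, 1 panel each, every panel spanning the same range of log2 units) on 5 wildtype arrays (blue) and 3 Ctcfl mutant arrays (red), with the mean as a line and the SD as a bar. Open triangles mark wildtype 7 and mutant 8, which lie lowest of their group for all 3 Zbtb16 probe sets. The 2 groups come closest to separation for Uchl1, then for the first Sall4 and the first Gfra1 probe set.

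UCHL1, also called PGP9.5, is a deubiquitinating enzyme that is abundant in spermatogonia and widely used to stain them. Its probe set read 9.51, 9.53, 9.52, 9.64 and 9.44 on wildtype 1, 2, 4, 6 and 7, and 9.83, 9.89 and 9.64 on mutant 3, 5 and 8. Mutant 3 and 5 were above every wildtype array, and mutant 8 was level with wildtype 6, the highest of the controls. The means were 9.53 ± 0.072 (SD, n = 5) and 9.78 ± 0.13 (SD, n = 3). The difference of 0.26 (SE 0.078, 95% interval 0.083 to 0.43), a ratio of 1.195, had an unadjusted limma p of 0.0082 and an adjusted p of 1.0. An exact two-sided permutation test of the 8 arrays gave p = 0.071, or 0.32 after adjustment over the 9 genes. The smallest p this test, which doubles the one-sided p, can give with these arrays is 0.036. With the pair as a block the difference was 0.28 (SE 0.067, unadjusted limma p 0.0020, adjusted p 0.80), and without the pair it was 0.31. All 6 remaining arrays were then separated by genotype, as also for Dmrt1, Sall4 1424152_at and Kit 1415900_a_at. Related genes described below were separated in these 6 arrays too, among them Bcl6b, Stra8 and Rhox13 (mutant higher) and T (mutant lower). The share of all probe sets separated in them was not computed, and the pair was set from the expression values. No result is therefore drawn from this separation.

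GFRA1 is the co-receptor that binds GDNF and is the classical surface marker of single and paired undifferentiated spermatogonia. The main Gfra1 probe set, 1439015_at, read 4.98, 5.08, 4.87, 5.31 and 5.00 in wildtype and 5.28, 5.51 and 5.42 in mutant testis. Only wildtype 6 reached into the range of the mutant arrays, just above mutant 3. The difference was 0.35 (SE 0.10, 95% interval 0.13 to 0.58, unadjusted limma p 0.0061, adjusted p 1.0), a ratio of 1.28. The exact permutation p was again 0.071. This signal is dim, since only 30.1% of probe sets on the array have a lower mean, and it was close to the lower quartile of each array, which lay between 4.82 and 4.92.

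The other 2 Gfra1 probe sets were dimmer still and did not show this difference. Probe set 1421973_at read 4.85, 4.92, 4.96, 5.11 and 5.12 in wildtype and 4.70, 4.87 and 5.29 in mutant testis, a difference of -0.043 (SE 0.13). Its highest values within each genotype were those of wildtype 7 and mutant 8, and without these it was -0.18. Probe set 1450440_at read 4.41, 4.83, 4.55, 4.60 and 4.33 against 4.74, 4.53 and 4.64, a difference of 0.097 (SE 0.11). The 3 Gfra1 probe sets thus disagreed in sign, and whether they detect the same transcripts was not tested.

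ZBTB16 is a transcriptional repressor without which the stem cell pool is lost with age. The main probe set, 1439163_at, read 8.30, 7.99, 7.94, 7.98 and 7.65 in wildtype and 7.94, 8.21 and 7.60 in mutant testis. The groups lay over each other, with the lowest reading of each on the arrays that stood apart. The difference was -0.058 (SE 0.16, 95% interval -0.41 to 0.29, limma p 0.72 before and 1.0 after adjustment), and it became -0.00034 with the pair as a block. Probe set 1427638_at differed by 0.011 (SE 0.092) and 1419874_x_at by -0.12 (SE 0.16).

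SALL4, a zinc finger factor of pluripotent cells and undifferentiated spermatogonia, had 2 probe sets. The main one, 1424152_at, read 7.44, 7.34, 7.43, 7.45 and 7.09 in wildtype and 7.71, 7.49 and 7.44 in mutant testis. Mutant 3 and 5 were above all controls, mutant 8 was within their range and wildtype 7 was below all other arrays. The difference was 0.20 (SE 0.10, 95% interval -0.032 to 0.42, unadjusted limma p 0.084) with all arrays and 0.23 (SE 0.076, unadjusted limma p 0.013, adjusted p 0.83) with the pair as a block. The exact permutation p was 0.11. The second, 1424153_s_at, whose suffix marks probes shared between transcripts, read 6.24, 6.39, 5.55, 5.18 and 5.43 against 6.03, 5.44 and 4.82. Here the spread within a group (SD 0.53 and 0.61) was larger than the difference of -0.33.

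ID4, an inhibitor of helix-loop-helix factors that marks the spermatogonia with most stem cell activity, read 7.53, 7.35, 7.01, 7.03 and 7.19 in wildtype and 7.08, 7.32 and 7.34 in mutant testis. All mutant values were inside the wildtype range, and the difference was 0.025 (SE 0.13, 95% interval -0.26 to 0.31). A further 2 probe sets listed Id4 together with a second locus, and were not counted as members. Both of these were brighter than the first, as 97.4% and 89.4% of probe sets on the array have a lower mean, against 62.0% for the first. They differed by -0.12 (SE 0.069) and -0.049 (SE 0.084), opposite in sign to the first.

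Genes of the step towards differentiation were Kit, Sohlh1, Sohlh2 and Dmrt1, and none of them had an unadjusted limma p under 0.05 over the 8 arrays. KIT, the receptor for stem cell factor that appears as spermatogonia differentiate, read 8.47, 8.38, 8.26, 8.24 and 8.40 in wildtype and 8.51, 8.47 and 8.37 in mutant testis with its main probe set, 1452514_a_at. The difference was 0.097 (SE 0.075, 95% interval -0.071 to 0.27). The second Kit probe set, 1415900_a_at, read 6.86, 6.997, 7.04, 6.91 and 6.91 against 7.13, 7.22 and 6.83. Mutant 3 and 5 exceeded every control and mutant 8 was below all of them, so that the difference of 0.12 (SE 0.093) became 0.22 (SE 0.085, unadjusted limma p 0.028) without the pair of arrays. Both carry a suffix that marks probes matching several transcripts of a gene. KIT is also made by Leydig and mast cells.

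SOHLH1 read 6.48, 6.71, 6.45, 6.82 and 6.61 in wildtype and 6.97, 6.69 and 6.55 in mutant testis, a difference of 0.12 (SE 0.12, 95% interval -0.14 to 0.38). Its partner SOHLH2 read 8.10, 8.34, 8.24, 8.22 and 7.97 against 8.26, 8.40 and 8.12, a difference of 0.086 (SE 0.098, 95% interval -0.13 to 0.31). In both genes the highest of the 8 readings was a mutant array and the rest were intermixed. DMRT1, a transcription factor of spermatogonia and Sertoli cells, read 9.88, 9.91, 9.75, 9.75 and 9.80 against 9.98, 9.92 and 9.66. Mutant 3 and 5 were the highest and mutant 8 the lowest of all arrays, which left a difference of 0.032 (SE 0.085, 95% interval -0.16 to 0.22).

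**Figure D2:**
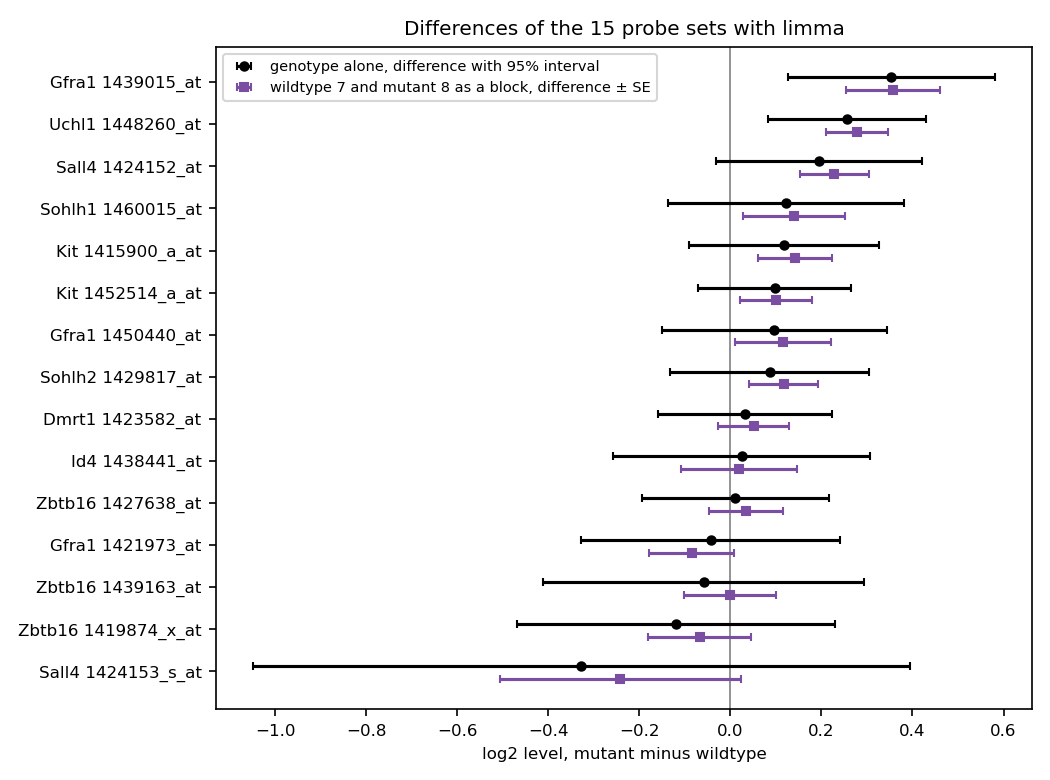
Difference in log2 level between Ctcfl mutant and wildtype testis (x axis) for the 15 probe sets (y axis, sorted), with all 8 arrays (circles, 95% interval) and with wildtype 7 and mutant 8 as a block (squares, SE). The intervals of Gfra1 1439015_at (0.13 to 0.58) and Uchl1 (0.083 to 0.43) exclude 0 before adjustment, and the other 13 include it.

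With wildtype 7 and mutant 8 as a block, 3 members had an unadjusted limma p under 0.05, all higher in mutant testis (Gfra1, Sall4 and Uchl1). Over the array this fit put 3.03% of probe sets past that threshold in the higher and 2.83% in the lower direction. The median difference of the 15 probe sets was 0.10 in it. None of the members passed adjustment, and 1 probe set of the array did, which is listed under the names LOC100047259 and Tsp50, a testis protease, and is named here after its value was seen (-0.85, adjusted limma p 0.030).

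Next, the members were compared between the arrays that stood apart and the rest of their own genotype. Of the 15 probe sets 9 were lower on both wildtype 7 and mutant 8, against 34.6% of all probe sets, and 1 was higher on both. This was not particular to the members. Of the 110 probe sets of the 4 lists of related genes described below, 51 were lower on both, among them 9 of 13 for differentiating spermatogonia. Zbtb16 was lower on both in each of its 3 probe sets, which read lower on these 2 arrays than on any of the other 6, as 10.3% of all probe sets did. For the main probe set the departure was -0.40 on wildtype 7 and -0.48 on mutant 8, larger than its difference between genotypes. The only member above all 6 other arrays on both was Gfra1 1421973_at, against 8.6% of all probe sets. Its departure from the mean of the other arrays of the same genotype was 0.16 on wildtype 7 and 0.50 on mutant 8, and wildtype 7, at 5.12, was barely above wildtype 6, at 5.11. Over the members the median departure was -0.11 on wildtype 7 and -0.21 on mutant 8, whereas the median of the spermatid probe sets was 1.26 and 1.44. The part of the spermatid RNA in the member values was not tested.

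**Figure D3:**
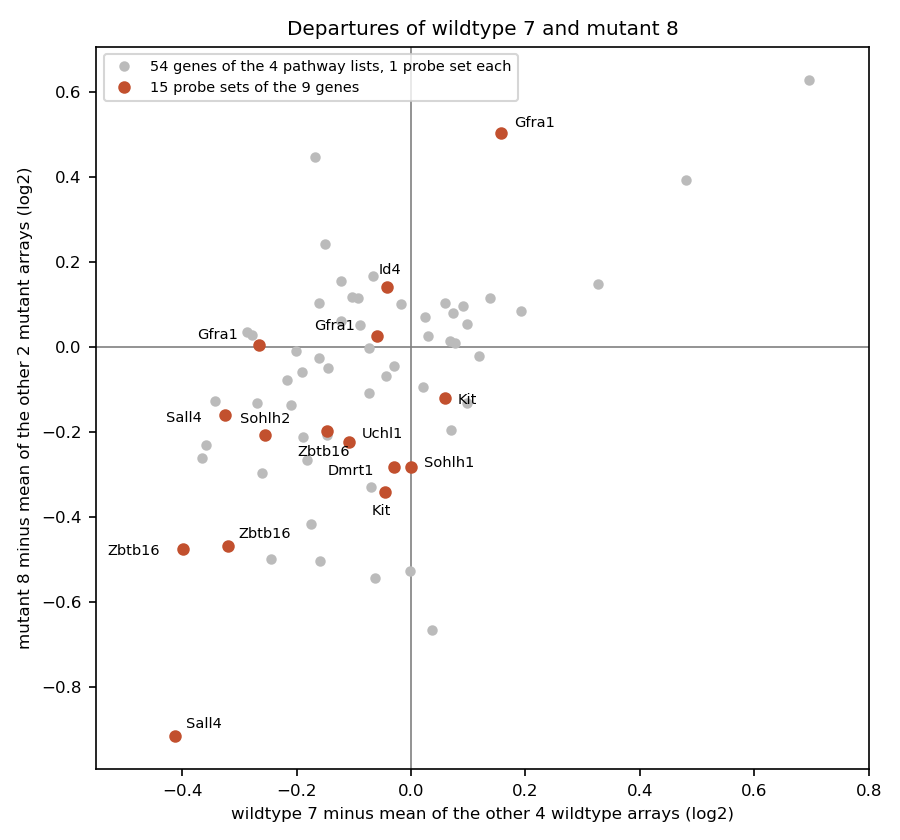
Departure in log2 level of wildtype 7 from the mean of the other 4 wildtype arrays (x axis) and of mutant 8 from the mean of the other 2 mutant arrays (y axis), for the 15 member probe sets (red) and 1 probe set for each of 54 related genes (grey). Zbtb16 is at the lower left with -0.40 and -0.48, and Gfra1 1421973_at at the upper right with 0.16 and 0.50.

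The wider pathway was described with 4 lists of related genes, none of them members. Of 28 further genes of undifferentiated spermatogonia 26 had a probe set, and the 49 probe sets divided into 26 higher and 23 lower in mutant testis, with a median difference of 0.0039. Only Bcl6b, a transcriptional repressor induced by GDNF, had an unadjusted limma p under 0.05, with means of 6.16 ± 0.080 (SD, n = 5) for wildtype and 6.33 ± 0.081 (SD, n = 3) for mutant arrays and a difference of 0.17 (SE 0.072, unadjusted p 0.041). T, or brachyury, a T-box factor, was the only gene of this list whose groups did not overlap, at a dim 4.30 ± 0.21 in wildtype and 4.10 ± 0.036 in mutant testis, a difference of -0.20 (SE 0.11). The 3 probe sets of this list with the highest level among the main ones belonged to Taf4b, a germ cell subunit of the general transcription machinery (difference 0.17, SE 0.085), Epcam, an epithelial adhesion molecule (0.14, SE 0.21), and Itga6, a laminin receptor used to sort stem cells (0.038, SE 0.13).

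Differentiating spermatogonia were represented by 5 genes and 13 probe sets, of which 9 were higher and 4 lower, with a median of 0.051. Rhox13, a homeobox gene switched on as spermatogonia differentiate, stood at 8.76 ± 0.055 (SD, n = 5) on wildtype and 9.01 ± 0.11 (SD, n = 3) on mutant arrays without overlap between the groups. Its difference was 0.25 (SE 0.071, unadjusted limma p 0.0060, adjusted p 1.0). Stra8, which retinoic acid induces before meiosis and which is found in the same cells as CTCFL, differed by 0.094 (SE 0.088). Ccnd2, a D-type cyclin, differed by 0.011 (SE 0.12) and Dmrtb1, a DM-domain factor of the step into meiosis, by 0.051 (SE 0.077).

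Ligands and receptors of the niche gave 14 higher and 14 lower probe sets for 12 of 13 genes, a median of -0.00019, and none at an unadjusted limma p of 0.05. Ret, the signalling partner of GFRA1 counted in the first list, read 6.15 ± 0.028 (SD, n = 5) on wildtype and 6.19 ± 0.052 (SD, n = 3) on mutant arrays. Gdnf itself was dim and differed by -0.027 (SE 0.10), and Kitl, the ligand of KIT, differed by -0.030 (SE 0.14). Nrtn, a relative of GDNF, differed by 0.031 (SE 0.076) and Csf1, a cytokine of the niche, by 0.014 (SE 0.071). Family members of the 10 genes (such as Id1 to Id3 and Sall1 to Sall3) gave 10 higher and 10 lower probe sets for 11 of 12 genes and a median of -0.0045, with none at an unadjusted limma p of 0.05. Among them Uchl5 differed by 0.018 (SE 0.10), Zbtb32 by -0.025 (SE 0.066) and Id3 by 0.030 (SE 0.13). Over all 4 lists, 54 genes with 110 probe sets had a median difference of 0.0073, and 0 probe sets passed adjustment. Past the unadjusted threshold there were 2 of the 110, both higher, where 1.76% of all probe sets were higher past it. The groups did not overlap for 1 of the 110 in the higher and 2 in the lower direction, against 1.38% and 1.31% of all probe sets.

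**Figure D4:**
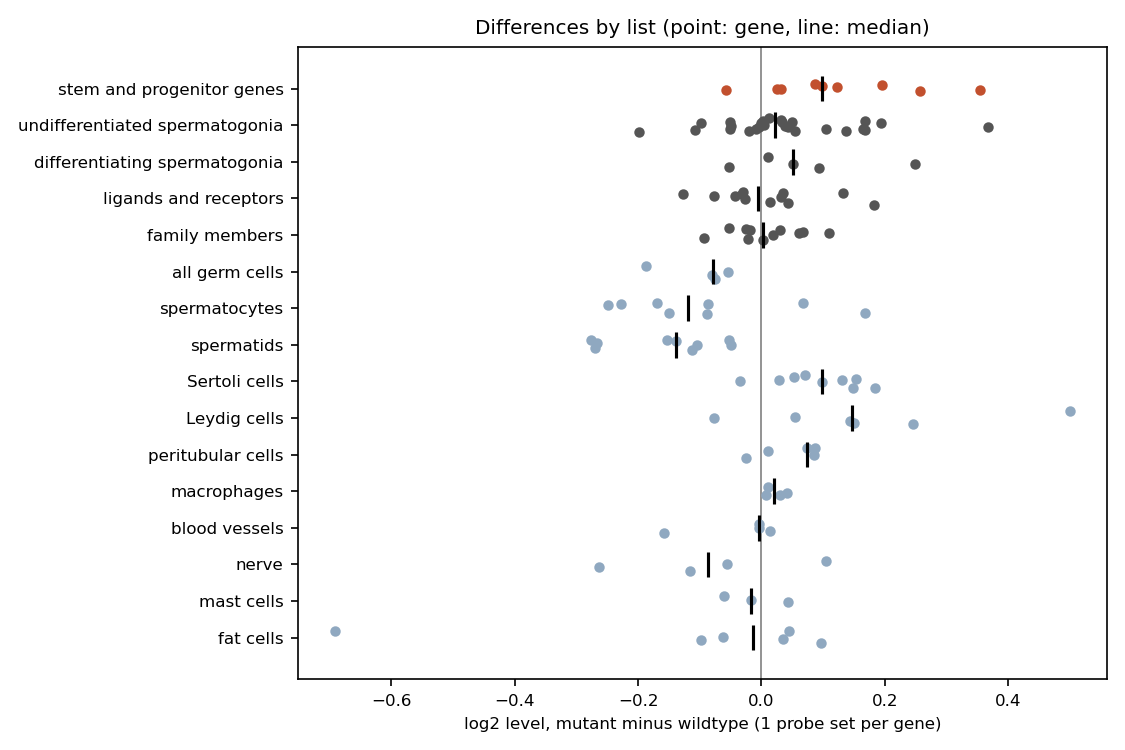
Difference in log2 level between Ctcfl mutant and wildtype testis (x axis) for 1 main probe set per gene (points), by gene list (y axis), with the median of each list as a line. The 9 stem and progenitor genes (red) have a median of 0.097 and 8 of them are above 0, the pathway lists (dark grey) have medians from -0.0064 to 0.051 and the marker lists of testis cell types (light blue) from -0.14 to 0.15.

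Markers of other cell types were read on the same arrays. Sertoli markers, which report the somatic cells that nurse the germ cells, were higher in mutant testis in 14 of 15 probe sets (median 0.092), with a mean level of 9.15 to 9.23 on wildtype and 9.19 to 9.40 on mutant arrays, and 1 had an unadjusted limma p under 0.05. Leydig markers, from the androgen-producing cells, were higher in 9 of 10 (median 0.15), at 8.46 to 8.77 on wildtype and 8.50 to 9.07 on mutant arrays, and 2 had an unadjusted limma p under 0.05. Markers of all germ cells were lower in 5 of 5 probe sets (median -0.076, range of mean levels 11.8 to 11.9 against 11.7 to 11.8), those of spermatocytes in 6 of 9 (median -0.089, 10.5 to 10.8 against 10.5 to 10.7) and those of spermatids in 16 of 16 (median -0.22, 8.72 to 11.4 against 8.59 to 10.9). In the lower direction 1 germ cell, 1 spermatocyte and 1 nerve probe set had an unadjusted limma p under 0.05. Over the array 1.76% of probe sets were higher and 1.7% lower past that threshold. With all 8 arrays 0 of the 16 spermatid probe sets had an unadjusted limma p under 0.05. With the pair as a block 14 of the 16 were lower at that threshold, against 2.83% of all probe sets. The pair was set from these same values and stands out in spermatid markers, so that this count is no independent result. The mean level of the 9 member genes was 7.68 to 7.86 on wildtype and 7.79 to 7.99 on mutant arrays, and 7.72 to 7.86 against 7.95 to 7.99 without the pair. Such a separation was not particular to the members. Without the pair Sertoli markers were at 9.15 to 9.23 against 9.30 to 9.40, and Leydig markers at 8.46 to 8.53 against 8.58 to 9.07. Genes of differentiating spermatogonia and macrophage markers were then also higher on the mutant arrays without overlap, and nerve and fat markers lower without overlap. Among the members DMRT1 is shared with Sertoli cells and KIT with Leydig and mast cells, and mast cell markers were dim in both groups, at 4.81 to 5.16 and 4.85 to 5.15. Of the remaining lists, peritubular markers spanned 7.42 to 7.65 and 7.48 to 7.72, macrophage markers 7.74 to 8.02 and 7.62 to 8.05, blood vessel markers 6.33 to 6.53 and 6.38 to 6.42, nerve markers a dim 4.46 to 4.66 and 4.47 to 4.54, and fat markers 5.80 to 7.36 and 5.55 to 7.41, with all 12 fat probe sets higher on wildtype 7 and mutant 8. The part of these cell types in the member values was not tested.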

How the data were processed

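Titles of the samples gave the genotype and number of each array. The authors produced log2 levels with Affymetrix software, quantile normalisation and RMA background correction, and the deposited log2 values of the 8 arrays were used as they stand, without a filter. Median levels per array were 6.40 to 6.45. Number of arrays limits the precision. Deposited columns and tables of the authors' own comparison (fold changes and p-values) were not used.

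A linear model with moderated variance was fitted to the whole table of 45101 probe sets (limma 3.58.1 under R 4.3.3, two-sided p-values adjusted by Benjamini-Hochberg). For the main probe set of each member an exact permutation test was run over the 56 splits of the arrays with scipy 1.17.1 (Python 3.11.15), and the fit was tested on simulated data. The main probe set of a gene is one without a suffix for cross-hybridisation where one exists, then the one with the highest mean. Every member and probe set was named, and from the pathway lists the genes whose main probe set had an unadjusted p under 0.05 or no overlap, the top 3 by level of each list, and Ret, Gdnf and Kitl. Stra8 was added after its value was seen. Markers were matched by symbol or Entrez ID. The members and lists were chosen with earlier results of these data known.

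Alternatives were each array left out, the pair left out or as a block, median centring, repeated quantile normalisation, an offset of 50 on the linear scale, probe sets above the median level, a variance trend, no shared variance, array weights, 1 main probe set per gene and other probe sets.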

Additional observations from a re-analysis of the deposited data

Results flagged for a closer look

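The wildtype value of Sall4 probe set 1424152_at on wildtype 7 was 7.09, with the nearest control at 7.34. Its gap took 0.711 of the range of the 5 wildtype arrays, just over the critical value of 0.71 (Dixon). Chance gives about 5% of such values, or 0.75 among the 15 probe sets examined.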

How the results depend on the processing

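The number of members past an adjusted p of 0.05 was 0 under all alternatives. The number past the unadjusted threshold was 2 or 3 in each, except 1 when only probe sets above the median level were tested, a setting that leaves out the dim Gfra1. The median difference of the members lay between 0.016 (without mutant 5) and 0.13 (without mutant 8), was 0.030 with an offset of 50, and did not change sign under any alternative. Without wildtype 7 it was 0.035. Uchl1 (0.21 to 0.33), Sall4 (0.11 to 0.25), Kit (0.067 to 0.15) and Sohlh1 (0.0034 to 0.22) kept their direction with the main probe set under every alternative, as did Sohlh2 (0.016 to 0.16) and Gfra1 (0.15 to 0.42, lowest with the offset). Zbtb16 turned positive with array weights (0.015), without the pair (0.021) and with 1 of its other 2 probe sets (0.011, against -0.12 with the third), and ranged from -0.20 to 0.10 with 1 array left out. Dmrt1 ranged from -0.030 to 0.13 and Id4 from -0.029 to 0.11 with 1 array left out, and Id4 was -0.031 without the pair. Other probe sets gave -0.043 for Gfra1 and -0.33 for Sall4. The median of the pathway lists was between -0.0018 and 0.040 with 1 array left out. The causes were not tested. No paired analysis was run, because the labels name no litter or pair of animals. The sample numbers are one running series over both groups and do not give pairs.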
